A study of Mus musculus with 9 samples.

Results

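Immunoglobulin variable segments are the germline pieces of DNA from which the antigen-binding end of an antibody is built. They were taken here as all genes whose symbol begins with Ighv, Igkv or Iglv followed by a number, in the gene tables of 9 mouse liver tumors, and were kept where the segment was reported at an FPKM of at least 1 in any tumor (FPKM, fragments per kilobase of transcript, scaled to the mapped fragments of the library). Of 346 segments named in the files, 233 met this rule: 121 of 183 heavy chain segments, 109 of 160 kappa segments and all 3 lambda segments. Segments that were reported together in 1 table entry in any tumor were read as 1 unit in all tumors, which gave 166 units, 99 heavy and 67 light (66 kappa and 1 lambda), among 48265 loci in all. These units hold 231 of the 233 segments, since Iglv1 and Iglv2 form a unit that was reported together with lambda constant genes in 7 tumors and was left out. At the threshold, Ighv8-10, Igkv4-56 and Ighv3-2 came in with a highest FPKM of 1.06, 1.17 and 1.23, and Ighv1-21, Igkv1-35 and Ighv1-32 stayed out with 0.635, 0.595 and 0.574.

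During B cell development a heavy chain variable segment is joined to a diversity and a joining segment, and a kappa or lambda variable segment to a joining segment, so that each B cell and all its descendants carry the transcripts of a single productive heavy and light chain. Plasma cells, the antibody-secreting descendants, hold far more immunoglobulin mRNA per cell than resting B cells. The variable segments that dominate a bulk tissue are therefore commonly those of its plasma cells. Segments fall into families by sequence, of which Ighv1 is by far the largest in the mouse, and close members of a family can share reads.

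The tumors were grown in the livers of male C57BL/6 mice from Hepa1-6, a mouse hepatoma line. The 3 groups were 3 PBS-treated tumors, 3 anti-PD-1 antibody-nonresponsive tumors and 3 anti-PD-1 antibody-responsive tumors, with 1 tumor per mouse. No gene deletion or transgene is named for any group. All mice received PBS or anti-PD-1 antibody, which blocks an inhibitory receptor of T cells, into the peritoneum every 4 days for 5 injections. The antibody-treated groups are the 3 largest and the 3 smallest treated tumors after those in between had been set aside, so that the groups were formed by the tumor size they are named for. Whole tumors were sequenced, in which fewer B or plasma cells and less immunoglobulin RNA per cell cannot be told apart.

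The first PBS-treated tumor stood apart from the other 8 tumors before any comparison. The summed FPKM of 16 B cell genes was lowest there, 70.9 against 90.95 to 424. Among them, Vpreb3 was listed at 0 FPKM there and in no other tumor, and Ms4a1 (CD20) stood at 0.125 against 2.85 to 28.0. Not all of the list were lowest there: Cr2 (34.2), Cd37 (28.4) and Ebf1 (1.41) lay within the range of the other tumors. Jchain, the joining chain of secreted antibody, was at 6.24 against 127 to 962. The summed FPKM of 10 hepatocyte genes was also lowest there, 614 against 3798 to 24443, and that of 9 T cell genes was 69.1 against 105 to 232. Relative sequencing depth, read from the steps between low FPKM values, lay between 0.938 and 1.07 of this tumor's depth in the other 8. Entries without a gene name took 19.2% to 81.5% of all FPKM in a tumor, 81.5% in this one, while the summed FPKM of named genes was 683779 in this tumor and 651110 to 814452 in the others. Comparisons with PBS of whole-tumor measures and of the number of segments under a p-value threshold are therefore given with and without this tumor.

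The summed FPKM of heavy segments was 153, 25448 and 15359 in the PBS-treated tumors, 22384, 9842 and 11295 in the nonresponsive tumors and 35281, 4877 and 51098 in the responsive tumors. The responsive group thus held both the highest sums and, in its second tumor, the lowest of the 8 tumors other than the first PBS-treated tumor. Light segments followed the same order within each group, with sums of 229, 37788 and 21987, then 31222, 12212 and 14988, then 41404, 4938 and 61687. On the log2 scale the responsive minus nonresponsive difference was 0.61 for heavy and 0.38 for light segments (SD 1.82 and 1.96 in the responsive, 0.63 and 0.71 in the nonresponsive tumors, n = 3 each), within the spread of the responsive tumors (exact permutation test, two-sided, p = 0.7 and 0.8). Responsive minus PBS gave 2.40 and 2.02 (p = 0.5 for both, exact permutation test) and nonresponsive minus PBS 1.79 and 1.64 (p = 0.9 for both, exact permutation test), differences carried by the first PBS-treated tumor. Without it, responsive minus PBS was 0.06 for heavy and -0.31 for light segments, and nonresponsive minus PBS -0.54 and -0.69. With 3 tumors against 3, this test cannot give a p-value below 0.1.

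The second responsive tumor held these low segment sums beside a summed FPKM of 166 for 16 B cell marker genes, above the 90.95 to 145 of the nonresponsive tumors. Its Jchain FPKM of 127 was the lowest of the 8. Across all 9 tumors the summed heavy segments stood at 1.81 to 2.46 times the FPKM of the heavy constant entry, with the second responsive tumor at the low end, and both gave the same order of the 9 tumors.

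**Figure D1:**
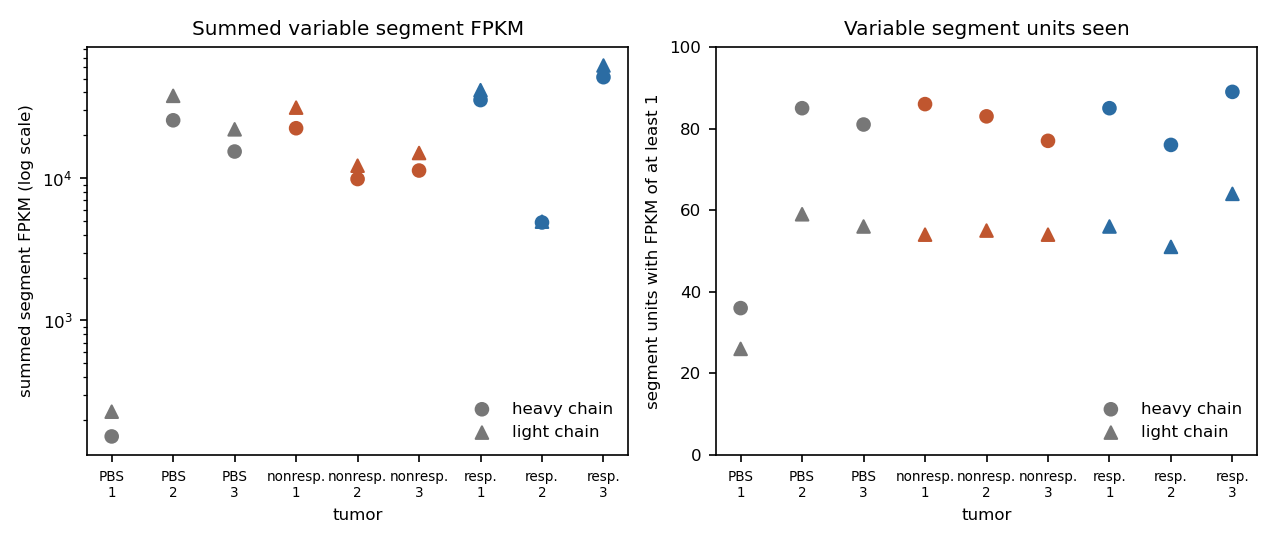
Summed FPKM of heavy (circles) and light (triangles) variable segments on a log scale, left, and the number of heavy and light segment units with an FPKM of at least 1, right, for each of the 9 tumors (grey PBS-treated, orange nonresponsive, blue responsive, 1 point per tumor and chain). The first PBS-treated tumor lies far below the others in both, while the other 8 spread over sums of 4877 to 51098 for heavy segments with 76 to 89 heavy units seen.

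Outside the first PBS-treated tumor, the number of segments seen varied far less than their sum. Heavy units with an FPKM of at least 1 numbered 36, 85 and 81 in the PBS-treated, 86, 83 and 77 in the nonresponsive and 85, 76 and 89 in the responsive tumors. Light units numbered 26, 59 and 56, then 54, 55 and 54, then 56, 51 and 64. The means of 83.3 ± 6.66 heavy units in responsive and 82.0 ± 4.58 in nonresponsive tumors differed by less than either SD (n = 3 each, exact permutation test, p = 0.8). Light units, at 57.0 ± 6.56 and 54.3 ± 0.577, differed by less than the SD of the responsive tumors (n = 3 each, exact permutation test, p = 0.7). PBS-treated tumors averaged 67.3 ± 27.2 heavy and 47.0 ± 18.2 light units (SD, n = 3), and neither antibody-treated group differed from them beyond that spread (exact permutation p = 0.6 to 1.0). Without the first PBS-treated tumor, responsive tumors differed from PBS-treated ones by 0.33 heavy and -0.5 light units, and nonresponsive tumors by -1.0 and -3.17. Of the 99 heavy units, 67 were seen in all 8 tumors other than the first PBS-treated tumor, and of the 67 light units 44. Only 10 heavy and 5 light units were seen in 1 of these 8 tumors alone, and no unit was seen in all 3 tumors of a group and in no other tumor, for any of the 3 groups.

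What differed between tumors was which heavy segments led. The 27 places of the 3 highest heavy units in each tumor were filled by 17 different units, 12 of which led in 1 tumor alone, and 7 different units came first. Ighv1-82 led the second PBS-treated tumor with 3336 FPKM, 13.1% of its heavy segment FPKM, followed there by Ighv1-59 with 3034 and Ighv1-22 with 2520. The third PBS-treated tumor was led by Ighv1-64 with 1625 (10.6%), followed by the Ighv14 unit (Ighv14-1, Ighv14-2, Ighv14-3 and Ighv14-4 together) with 1444 and Ighv1-49 with 1372. In the first PBS-treated tumor the unit of Ighv8-6, Ighv8-8, Ighv8-11 and Ighv8-12 came first with only 27.8 FPKM, ahead of the Ighv3/Ighv9 unit with 11.8 and Ighv2-6 with 10.4.

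Among nonresponsive tumors, Ighv1-19 led both the first and the third, with 2966 FPKM (13.2%) and 1057 FPKM (9.36%). Ighv1-69 also stood among the top 3 of both, with 2139 and 789. The second nonresponsive tumor was led by the Ighv8 unit with 1187 (12.1%), then Ighv1-39 with 948 and Ighv1-84 with 665. Each responsive tumor had a leader of its own. In the first, the unit of Ighv6-3 and Ighv6-5 reached 7220 FPKM (Cufflinks interval 6893 to 7546), 20.5% of heavy segment FPKM, against 1.21 to 378 in the other 8 tumors. Ighv1-74 led the second with 947 FPKM (interval 885 to 1009) and 19.4%, and the unit of Ighv3-6 and Ighv3-7 the third with 6298 (interval 6059 to 6537) and 12.3%. Ighv1-74 was no higher than 476 in any other tumor although the second responsive tumor had the lowest heavy sum of the 8.

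The germline sequences of the 4 Ighv1 segments that led the second and the third PBS-treated, the first and the third nonresponsive and the second responsive tumors are shown, since they let a reader see how far apart the leaders are. Each line gives the 150 bases that end at the TGT that closes the third framework region, 5′ to 3′, from the GENCODE M21 transcripts on GRCm38 with the coordinates of that build (minus strand of chromosome 12, inside the coding exon). Capitals mark the 30 positions at which the 4 segments differ from one another.
Ighv1-82, chr12:115952544-115952693: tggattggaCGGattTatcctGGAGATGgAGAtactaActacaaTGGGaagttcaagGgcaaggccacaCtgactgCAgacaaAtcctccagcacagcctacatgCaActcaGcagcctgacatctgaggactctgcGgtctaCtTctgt
Ighv1-64, chr12:115507551-115507700: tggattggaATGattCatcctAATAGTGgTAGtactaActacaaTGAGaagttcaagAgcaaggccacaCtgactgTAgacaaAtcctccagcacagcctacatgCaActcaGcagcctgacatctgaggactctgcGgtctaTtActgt
Ighv1-19, chr12:114708654-114708803: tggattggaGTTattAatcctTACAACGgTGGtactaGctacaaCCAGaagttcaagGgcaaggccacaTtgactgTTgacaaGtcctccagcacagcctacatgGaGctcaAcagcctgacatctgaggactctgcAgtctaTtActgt
Ighv1-74, chr12:115802654-115802803: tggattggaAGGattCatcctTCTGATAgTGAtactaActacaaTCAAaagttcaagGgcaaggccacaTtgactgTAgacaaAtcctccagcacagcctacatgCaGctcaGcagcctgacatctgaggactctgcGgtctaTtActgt
Pairs of these 4 differ at 13 (Ighv1-64 and Ighv1-74) to 25 (Ighv1-82 and Ighv1-19) of the 150 bases. Each has a relative closer than any of the other 3. Ighv1-82 is 95.9% identical to Ighv1-80, Ighv1-64 95.6% to Ighv1-62-3, Ighv1-19 96.3% to Ighv1-26 and Ighv1-74 95.9% to Ighv1-69, over 270 bases. Reads of such neighbours can be split or shared between them, so a level of 1 segment may hold part of the next.

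The unit that led the first responsive tumor joins Ighv6-3 and Ighv6-5, which are 89.3% identical. Their 150 bases up to the same codon (TGC or TGT) are printed to show how alike the segments of 1 table entry can be, with capitals at the 15 differing positions (GRCm38, minus strand).
Ighv6-3, chr12:114391717-114391866: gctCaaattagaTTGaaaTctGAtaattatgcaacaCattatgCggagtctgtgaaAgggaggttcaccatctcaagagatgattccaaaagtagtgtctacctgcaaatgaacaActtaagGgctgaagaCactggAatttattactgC
Ighv6-5, chr12:114416602-114416751: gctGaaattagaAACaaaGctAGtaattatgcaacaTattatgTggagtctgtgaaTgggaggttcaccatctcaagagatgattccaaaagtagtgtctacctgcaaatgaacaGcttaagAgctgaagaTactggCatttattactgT
Whether the 7220 FPKM came from Ighv6-3, Ighv6-5 or both cannot be told from the entry.

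**Figure D2:**
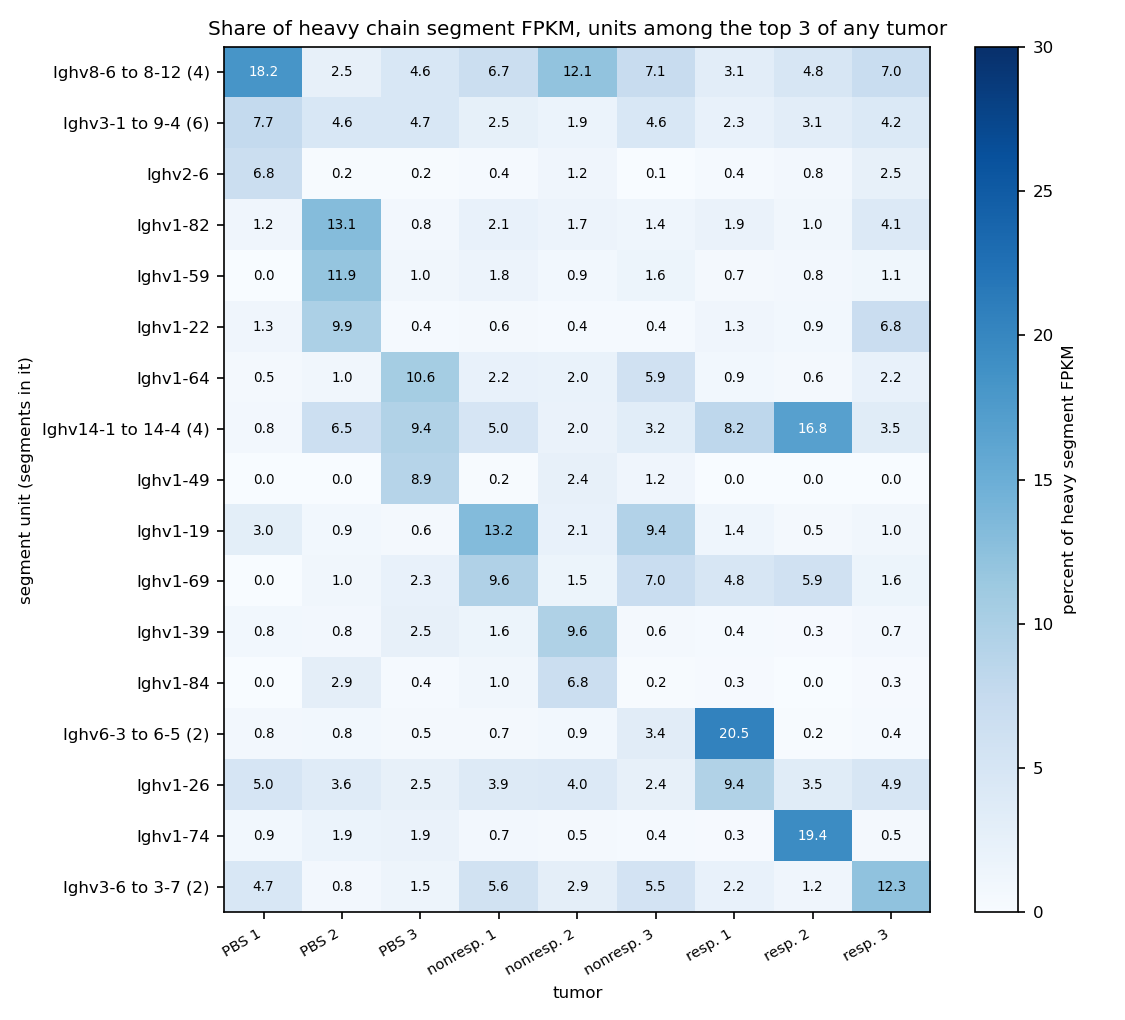
Percent of the summed heavy segment FPKM of each tumor (columns) taken by each of the 17 heavy units that were among the 3 highest of any tumor (rows, with the number of segments joined in a unit in parentheses). Most rows hold 1 dark cell: Ighv6-3 to 6-5 takes 20.5% in the first responsive tumor, Ighv1-74 19.4% in the second, while Ighv1-19 stands out in the first and the third nonresponsive tumors with 13.2% and 9.4%.

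Light chain leaders were shared more widely, and the leading light units also hold more segments. Only 9 different units filled the 27 places of the 3 highest light units, and the unit of 13 Igkv6 and Igkv8 segments held 1 of these places in 8 tumors. That unit had 20.6, 4387 and 3655 FPKM in the PBS-treated, 4892, 1329 and 2041 in the nonresponsive and 5853, 615 and 13818 in the responsive tumors. Its value in the third responsive tumor rests on an entry of 12942 FPKM whose interval ran from 0 to 108923, and that in the first on an entry of 5793 with an interval of 0 to 123527. The unit of 9 Igkv3 segments led the second PBS-treated tumor with 9374 FPKM (24.8% of light segment FPKM) and the first and second responsive tumors with 8893 (21.5%) and 796 (16.1%). In the nonresponsive tumors the same unit took 5.38%, 5.33% and 2.90%, and in the third responsive and the third PBS-treated tumors 11.1% and 5.36%. Its share was thus higher in every responsive than in every nonresponsive tumor, with a PBS-treated tumor above both. This was picked out after the values were seen, and the FPKM of the unit overlapped between the groups. In the second nonresponsive tumor part of the unit, Igkv3-1 and Igkv3-11, was reported in 1 entry with the kappa constant gene and has no value of its own there.

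The unit of Igkv10-94, Igkv10-96 and Igkv19-93 led the first PBS-treated tumor with 30.8 FPKM (13.5%) and the first and second nonresponsive tumors with 9247 (29.6%) and 1890 (15.5%), against 5.33% to 9.87% elsewhere. Igkv17-121 and Igkv17-127 led the third nonresponsive tumor with 2097 FPKM (14.0%), and Igkv6-17 and Igkv6-25 the third PBS-treated tumor with 4415 (20.1%). The unit of 5 Igkv1 segments was among the top 3 in 5 tumors, at 4.99% to 14.4% over all 9. Igkv4-57 reached the top 3 of the third PBS-treated tumor alone, with 1533 FPKM, and Igkv14-126 that of the second nonresponsive tumor alone, with 920. The unit of 4 Igkv9 and Igkv14 segments was second in the first PBS-treated tumor with 30.2 FPKM.

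Lambda light chains are used by a small share of mouse antibodies. Iglv3 had 2.36, 84.4 and 69.4 FPKM in PBS-treated, 124, 45.2 and 43.1 in nonresponsive tumors and 67.1, 42.3 and 157 in responsive ones, 0.162% to 1.03% of light segment FPKM, and the 3 groups overlapped. Iglv1 was reported in 1 entry with lambda constant genes in 7 of the 9 tumors, and Iglv2 in 3 of these, so the unit that joins them was not compared. These joint entries of variable and constant genes stood at 5.24 and 720 FPKM in the first and second PBS-treated tumors, 2186 and 797 in the first and the third nonresponsive tumors, and 2017, 1298 and 2152 in the responsive tumors.

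**Figure D3:**
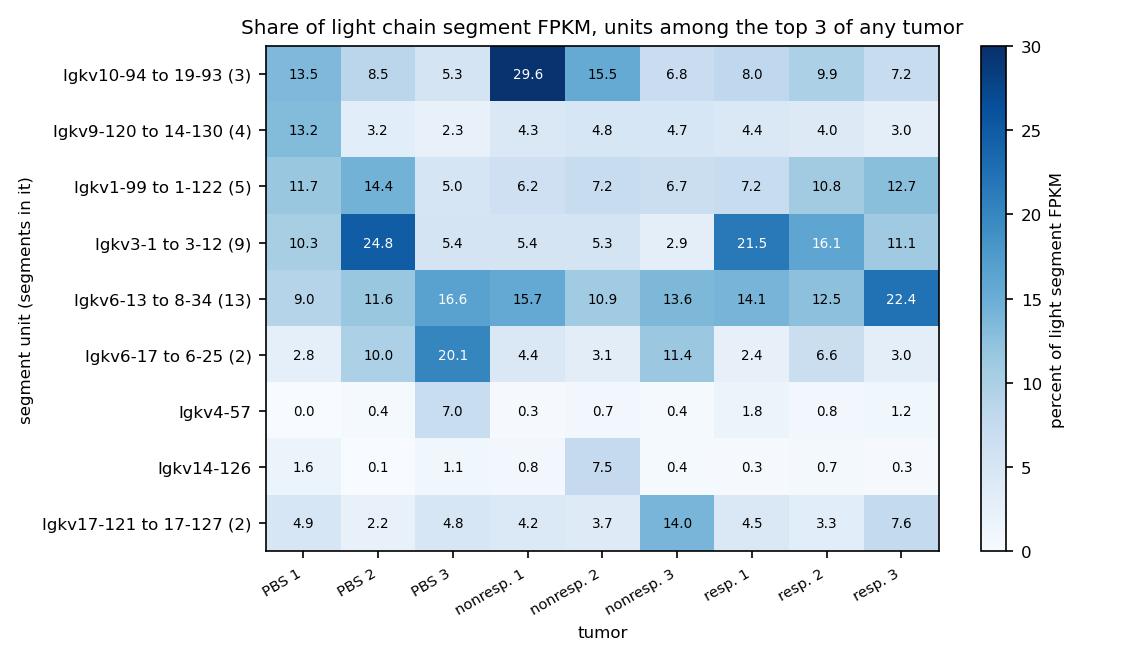
Percent of the summed light segment FPKM of each tumor (columns) taken by each of the 9 light units that were among the 3 highest of any tumor (rows, with the number of segments joined in a unit in parentheses). The Igkv10-94 unit reaches 29.6% in the first nonresponsive tumor and the Igkv3-1 unit 24.8% in the second PBS-treated tumor, and the Igkv6-13 unit lies between 9.0% and 22.4% in all 9.

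Some units passed an FPKM of 1 in every tumor. Of the 35 heavy units with an FPKM of at least 1 in all 9 tumors, the Ighv14 unit had the highest median, 1115 FPKM, followed by the Ighv8 unit with 805, Ighv1-80 with 595, the Ighv3/Ighv9 unit with 570 and Ighv1-26 with 399. Ighv1-80 stood at 7.71, 932 and 301 FPKM in PBS-treated, 595, 323 and 671 in nonresponsive tumors and 1366, 221 and 713 in responsive ones, which is 1.40% to 5.94% of heavy segment FPKM with groups that overlap. Ighv1-26 took 2.41% to 9.43%. Among the 25 light units seen in all 9 tumors, the highest medians were 3655 FPKM for the Igkv6/Igkv8 unit, 1890 for the Igkv10-94 unit, 1382 for Igkv6-17 with Igkv6-25, 1179 for the Igkv3 unit and 1097 for the Igkv1 unit.

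A few units peaked in 1 tumor. With the first PBS-treated tumor left out of the ranking, 8 units that took at least 1% of their chain did so at over 5 times their share in any other tumor, a description chosen after the values were seen. They were Ighv1-59 and Igkv8-16 in the second PBS-treated tumor, Ighv1-4 in the third, Ighv11-2, Ighv7-1 and Igkv14-126 in the second nonresponsive tumor, the Ighv6-3 unit in the first responsive tumor and Ighv1-74 in the second. Igkv8-16 stood furthest out, with 1565 FPKM (4.14% of light segment FPKM) against 51.9 or less in the other 8 tumors.

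By family, Ighv1 supplied most heavy segment FPKM outside the first PBS-treated tumor: 42.0%, 78.5% and 67.7% in PBS-treated, 70.8%, 61.0% and 62.3% in nonresponsive tumors and 53.6%, 64.0% and 59.7% in responsive ones, from 58 units. The Ighv14 unit was the next in the second responsive tumor with 16.8%, and ranged from 0.79% to 9.40% elsewhere. Ighv6 took 20.6% in the first responsive tumor and at most 3.56% in any other. Among light families Igkv4, with 30 units the family with most members seen, took 5.27% to 15.6%.

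Segments annotated as genes were seen far more often than pseudogenes. In GENCODE M21, 105 of 113 heavy and 97 of 100 kappa segments annotated as genes were seen in at least 1 tumor, against 15 of 69 heavy and 12 of 60 kappa segments annotated as pseudogenes, which lack an intact reading frame or signals. The units made only of pseudogenes took at most 0.0791% of heavy and 0.147% of light segment FPKM in any tumor. By position on GRCm38, the 57 heavy genes farther from the constant genes held 55.8% to 77.8% of heavy segment FPKM, and the 56 nearer ones 20.6% to 43.0%, in all 9 tumors, where units that span both parts are left out. Kappa genes had no such order, with 34.7% to 64.6% in the 50 nearer genes.

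The share of the top 5 heavy units was 42.7%, 49.5% and 39.3% in PBS-treated, 40.3%, 38.0% and 35.4% in nonresponsive tumors and 46.8%, 51.3% and 37.3% in responsive ones. Responsive tumors averaged 45.2% ± 7.14 and nonresponsive tumors 37.9% ± 2.42 (SD, n = 3 each), a difference of 7.24 percentage points with overlapping groups (exact permutation test, two-sided, p = 0.3). It was 0.906 points with only units of 1 segment, and 4.16 (without the second responsive tumor) to 11.2 points (without the third responsive tumor) with 1 tumor left out. For the top 5 light units the shares were 57.7%, 69.2% and 54.4%, then 62.8%, 48.6% and 53.4%, then 55.9%, 57.0% and 63.6%. Here the responsive minus nonresponsive difference was 3.91 percentage points (58.8% ± 4.16 against 54.9% ± 7.21, SD, n = 3 each, exact permutation test, p = 0.4), which was -15.3 points with only units of 1 segment, 11.3 without the units of uncertain FPKM (those with an interval reaching over 10 times the value), and 0.754 (without the second nonresponsive tumor) to 7.84 points (without the first nonresponsive tumor) with 1 tumor left out. Against PBS, the heavy share differed by 1.35 points in responsive (p = 0.9) and -5.90 points in nonresponsive tumors (p = 0.2), and the light share by -1.63 (p = 0.8) and -5.54 points (p = 0.4), all by the exact permutation test. No p-value of the 6 was below 0.2. Without the first PBS-treated tumor, the heavy share differed from PBS by 0.80 points in responsive and -6.44 points in nonresponsive tumors. The light share then differed by -2.99 and -6.90 points.

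Heavy segments made up 40.1%, 40.2% and 41.1% of variable segment FPKM in PBS-treated, 41.8%, 44.6% and 43.0% in nonresponsive tumors and 46.0%, 49.7% and 45.3% in responsive ones. The 3 groups did not overlap, at means of 40.5% ± 0.544, 43.1% ± 1.44 and 47.0% ± 2.35 (SD, n = 3 each, exact permutation p = 0.1 for each pair, the smallest this design allows). Without the first PBS-treated tumor, the heavy percent differed from PBS by 6.32 points in responsive and 2.43 points in nonresponsive tumors. This ratio was looked at after the values were seen and adds heavy and light units that share entries with neighbours differently. With only units of 1 segment the groups overlapped, at 63.5% to 79.5% in PBS-treated, 66.8% to 73.5% in the nonresponsive group and 68.9% to 80.1% in the responsive group, and with the units of uncertain FPKM left out the nonresponsive range of 50.9% to 60.6% spanned the responsive range of 56.5% to 59.5%. With the joint entries of variable and constant genes included, the groups overlapped and the direction against PBS turned, to -1.87 points in responsive and -4.43 points in nonresponsive tumors.

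Segment use was compared between tumors as the percent of FPKM they share, summing over units the lower of the 2 tumors' shares, so that 100 would be the same use and 0 none in common. Over the 36 pairs of tumors it ranged from 38.8% to 68.5% for heavy (median 52.1%) and from 56.0% to 75.1% for light segments (median 65.4%). The highest heavy value was that of the first and the third nonresponsive tumors, both led by Ighv1-19. The second nonresponsive tumor shared 55.7% and 54.1% with them. The 3 responsive tumors shared 55.0%, 53.5% and 47.0% among themselves, and the second and the third PBS-treated tumors 46.6%. For light segments the responsive tumors shared 74.3%, 71.8% and 72.7%, and the highest value of all, 75.1%, joined the second PBS-treated with the second responsive tumor.

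Over all 9 tumors, no difference in shared use between pairs of the same group and pairs of different groups was detected. The mean was 51.4% over 9 pairs within groups and 51.0% over 27 pairs between groups for heavy segments, a difference of 0.400 percentage points (exact permutation test over the 280 ways to form 3 groups of 3, two-sided, p = 0.782). For light segments it was 65.7% and 65.0%, a difference of 0.656 points (exact permutation test, p = 0.736). Without the first PBS-treated tumor, the difference was 3.00 points for heavy and 2.57 points for light segments (exact permutation test, p = 0.0964 and 0.221). With any 1 tumor left out, it ranged from -2.09 to 3.00 points (heavy) and -1.08 to 3.27 points (light). The smallest p-value of these fits was 0.0571 (exact permutation test, light, without the third PBS-treated tumor). Counting only whether a unit was seen, pairs without the first PBS-treated tumor shared 82.8% to 94.3% of their heavy units and 76.9% to 93.2% of their light units.

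**Figure D4:**
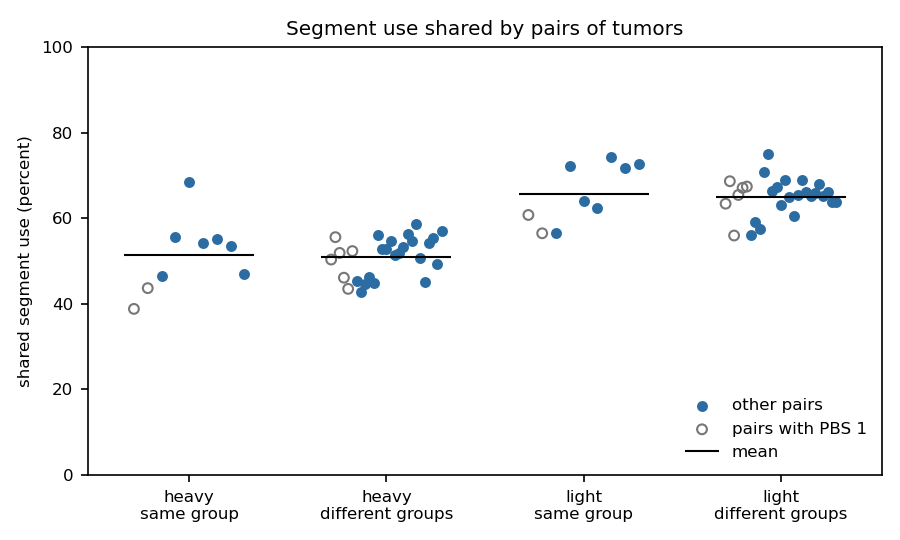
Percent of segment use shared by each pair of tumors (sum over units of the lower share), for heavy and light segments, with pairs of the same group (9) beside pairs of different groups (27); open circles are pairs with the first PBS-treated tumor and lines are means. With all 9 tumors included, the means of same-group and different-group pairs lie within 0.7 percentage points of each other in both chains. The highest heavy pair, at 68.5%, joins 2 nonresponsive tumors.

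Single segments were compared between groups with limma on log2(FPKM + 1). A locus entered a comparison where 3 or more of its 6 tumors reached an FPKM of 1. Fold changes on this scale understate those of low segments. Between responsive and nonresponsive tumors, 141 of the 166 units were tested and none passed 0.05 after Benjamini-Hochberg adjustment over 12718 loci (0.0629% of all loci did). At an unadjusted p-value under 0.05, 2 units were higher and 3 lower in responsive tumors, against 4.36% of all loci higher and 1.57% lower. The median difference of the units tested was 0.48, against -0.07 over all loci tested. Groups did not overlap for 3 of the 141 units, against 10.5% of all loci.

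The 3 units, all under an unadjusted p-value of 0.05, were Igkv4-58, Ighv1-49 and Ighv1-56. Ighv1-43 and the Ighv14 unit also passed that threshold, with groups that overlapped. Igkv4-58 stood at 16.7, 7.18 and 4.13 FPKM in the nonresponsive and 130, 16.8 and 141 in the responsive tumors, a log2 difference of 2.93 (SE 0.90, limma adjusted p = 0.835). The second responsive tumor barely cleared the first nonresponsive tumor, and the second and the third PBS-treated tumors, at 66.6 and 63.4, lay within the range of the responsive tumors. Ighv1-49 and Ighv1-56 were lower in responsive tumors, with log2 differences of -4.39 (SE 0.87) and -4.38 (SE 1.54) and adjusted p-values of 0.827 and 0.835 in limma. For Ighv1-49 the third PBS-treated tumor exceeded both groups with 1372 FPKM, and for Ighv1-56 the second and the third PBS-treated tumors had 27.4 and 76.6.

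The count of segments called rested on the second responsive tumor. Without it, 46 of 140 units were higher in the responsive group and 1 lower at an unadjusted p-value under 0.05 (5.42% of all loci higher, and 192 of 12454 loci lower), with a median difference of 1.48 and no adjusted p-value under 0.05 (limma, smallest 0.204). Without the third responsive tumor, none of 134 units was higher and 4 were lower, against 217 and 113 of 12439 loci, and the median of the units was -0.24. With every tumor included, hepatocyte genes moved with this comparison: at an unadjusted p-value under 0.05, 4 of 10 were higher in responsive tumors and none lower, with a median of 1.39. Of all loci, 4.36% were higher and 1.57% lower. Their part in the segment values was not tested.

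Both comparisons with PBS share the same 3 PBS-treated tumors, so their results are not independent. Between responsive and PBS-treated tumors, no unit of 139 passed the adjusted threshold (limma, 0.149% of 12717 loci did). Ighv3-2 did with no filter on low values and Ighv1-31 without the second PBS-treated tumor, but neither is support for a difference. Ighv3-2 lay below an FPKM of 1 in every tumor compared. Ighv1-31 passed the filter there only through the responsive group, and the tumor left out had 271 FPKM, above every responsive tumor. Of the 139 units, 9 were higher at an unadjusted p-value under 0.05, none lower, against 9.12% of all loci higher and 10% lower. The median difference was 1.75 for units and -0.11 for all loci. Groups did not overlap for 7 units, against 28.8% of all loci. Of the 9, 5 belong to the Igkv12 and Igkv4 families: Igkv12-89, Igkv4-50, Igkv4-72, the unit of Igkv4-79 and Igkv4-91, and Igkv4-81, and these with Ighv3-3 are the 6 of the 9 whose groups did not overlap. Ighv15-2, Ighv2-5 and the unit of Ighv2-2 and Ighv2-3 had groups that overlapped. In the second PBS-treated tumor Ighv2-2 was reported in 1 entry with the heavy constant genes, so the 11.6 FPKM of its unit there lacks that segment.

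Igkv12-89 had 0, 1.51 and 16.1 FPKM in PBS-treated and 214, 74.8 and 96.0 in responsive tumors, a log2 difference of 5.06 (SE 1.06, limma adjusted p = 0.246). All 3 responsive tumors were above every PBS-treated tumor, though the entry of the third PBS-treated tumor had an interval up to 93025. Igkv4-72 had 0, 44.5 and 30.8 against 369, 73.6 and 400, a log2 difference of 4.30 (SE 1.58). Igkv4-50 had 0, 29.6 and 21.4 against 446, 45.2 and 231. The unit of Igkv4-79 and Igkv4-91 had 2.18, 86.6 and 146 against 435, 381 and 716. For Igkv12-89, Igkv4-50, Igkv4-72, this unit and Ighv3-3, at least 1 nonresponsive tumor lay within the range of the responsive tumors. Igkv4-81 was listed at 0 in all 3 PBS-treated tumors and stood at 13.1, 1.09 and 4.24 in the responsive tumors, so that it entered the comparison only through the group in which it was higher, and its place among the 9 and the 6 units is no support for a difference. The other low unit, Ighv3-3, named after its values were seen, had at most 1.32 in PBS-treated and 1.78 to 8.10 in responsive tumors.

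With the first PBS-treated tumor left out, 6 of 139 units were higher and 4 lower in responsive tumors at an unadjusted p-value under 0.05 (6.74% and 2.95% of all loci), and the median difference of the units was -0.04. Over all 166 units, including those under the filter, 148 had a higher mean in responsive than in PBS-treated tumors, and 82 with the first PBS-treated tumor left out. With all 3 PBS-treated tumors, hepatocyte and B cell genes moved with this comparison. At an unadjusted p-value under 0.05, 8 of 10 and 6 of 16 were higher in responsive tumors and none lower, against 9.12% of all loci higher and 10% lower. Their part was not tested.

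Between nonresponsive and PBS-treated tumors, no unit of 138 passed after adjustment (limma, 0.0395% of 12665 loci did), and 8 were higher and none lower at an unadjusted p-value under 0.05, against 1.58% of all loci higher and 1.66% lower. The median difference was 1.31 for units and -0.06 for all loci. Groups did not overlap for 7 units, against 8.09% of all loci, and 3 of these were among the 8. Ighv11-2 had 0, 5.76 and 4.87 FPKM in PBS-treated and 32.6, 209 and 12.2 in nonresponsive tumors, a log2 difference of 3.73 (SE 1.20, limma adjusted p = 0.70). Ighv5-16 had 0.953, 25.1 and 43.5 against 245, 70.3 and 106 (log2 difference 3.23, SE 1.22), and Igkv4-53 had 4.86, 51.2 and 44.7 against 131, 103 and 184 (2.50, SE 0.86). The first and the third responsive tumors were as high as the nonresponsive tumors or higher for Ighv5-16, at 452 and 640, while the second had 1.32.

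Without the first PBS-treated tumor the direction of this comparison turned. Of 138 units, 18 were then lower in nonresponsive than in PBS-treated tumors and 3 higher at an unadjusted p-value under 0.05 (0.853% of all loci lower and 0.547% higher), the median difference was -0.34 and the smallest adjusted p-value 0.378 in limma. Over all 166 units, 123 had a higher mean in nonresponsive tumors with this tumor in the group and 56 without it.

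**Figure D5:**
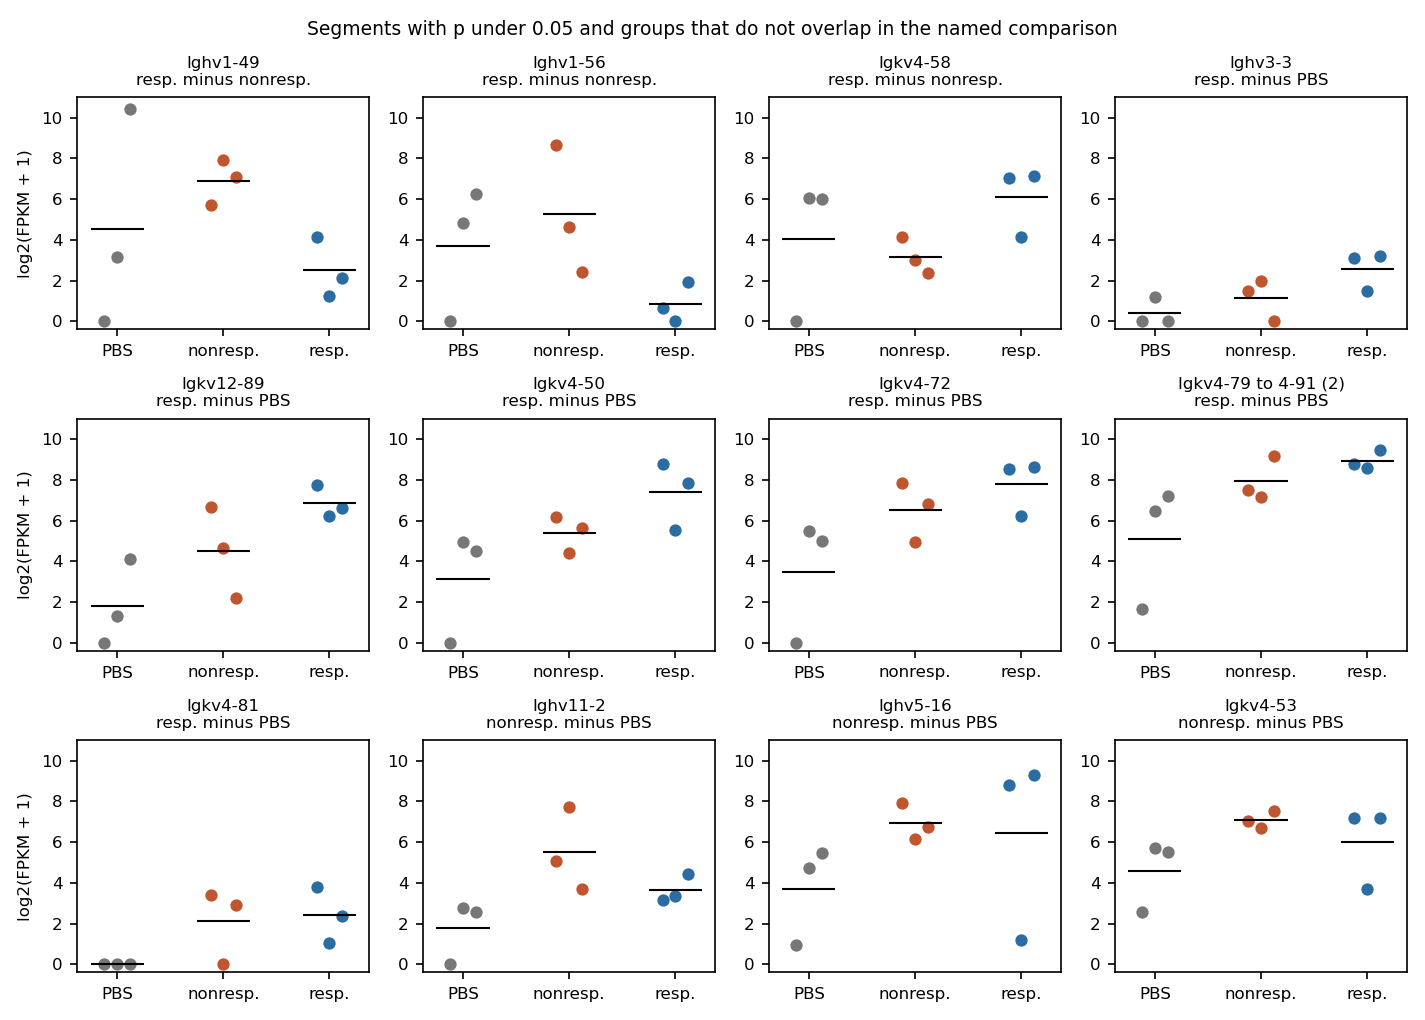
log2(FPKM + 1) of the 12 segment units with an unadjusted p-value under 0.05 and non-overlapping groups in the comparison named above each panel (points are tumors, grey PBS-treated, orange nonresponsive, blue responsive; lines are group means). No unit passed the adjusted threshold, and in most panels against PBS the lowest grey point, alone or tied, is the first PBS-treated tumor, listed at 0 FPKM in 6 of the 9 panels against PBS.

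Other lists of genes give the setting of these segments. The constant and joining chain list was read as 4 loci, and its summed FPKM was 196, 25736 and 16718 in PBS-treated, 29566, 12052 and 14346 in nonresponsive tumors and 38575, 8226 and 59138 in responsive ones. Light variable sums stood at 1.22 (second responsive) to 2.75 times (second PBS-treated) the kappa constant entry. The list was higher in the first nonresponsive than in the second PBS-treated tumor, while the heavy and light variable sums were lower. The kappa constant entry held the largest part of the list, followed by the heavy constant entry and the lambda constant entry. None of its 4 loci passed an unadjusted p-value of 0.05 in any comparison in limma. Of 15 plasma cell genes, among them Xbp1 (a regulator of secretory cells), Txndc5 (a protein-folding enzyme) and Sdc1 (a surface marker of plasma cells), 1 was higher in responsive than in nonresponsive tumors (unadjusted, against 4.36% of all loci) and none lower, with a median of 0.46 over the list. Txndc5, Sdc1 and Xbp1 are also made by other cells, and their FPKM in the first PBS-treated tumor was 231, 49.8 and 99.6. Of the same list, Mzb1 and Pou2af1 (each in an entry with other genes) and Derl3, named after their values were seen, were lowest there. They stood at 4.42, 0.233 and 0.477, against 27.8 to 204, 7.81 to 64.5 and 5.85 to 30.3 elsewhere. Others were not lowest there: Txndc5 was highest, and Fkbp11 (in an entry with Arf3), Sec11c, Tent5c, Prdm1 and Eaf2 lay within the range of the other tumors.

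Of 15 B cell genes tested, 10 were higher in responsive tumors than in nonresponsive ones at an unadjusted p-value under 0.05 and none lower, against 4.36% of all loci higher and 1.57% lower. Their median was 1.18, with no adjusted p-value under 0.05 (limma). The difference from the segments was not tested. Their summed FPKM was 70.9, 185 and 119 in PBS-treated, 145, 116 and 90.95 in nonresponsive tumors and 322, 166 and 424 in responsive ones, and the responsive tumors lay above every nonresponsive tumor. Cd79b, a signaling chain of the B cell receptor, had 21.7, 13.6 and 9.26 FPKM in nonresponsive tumors and 57.3, 21.2 and 85.3 in responsive ones. Cd37 had 44.2, 29.5 and 21.9 against 54.5, 42.9 and 57.9, and Cr2, reported together with Cd46 and Cr1l, 33.1, 31.3 and 27.2 against 42.3, 30.6 and 38.8.

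Germinal center and recombination genes were low. Of 7 germinal center genes 5 were tested between responsive and nonresponsive tumors, 1 of them higher (4.36% of all loci were). Those of highest level, S1pr2, Mef2b (in an entry with Borcs8) and Bcl6, are also made by other cells. Of the genes that rearrange segments in B cell precursors, Rag2, Vpreb1, Vpreb2 and Igll1 were listed at 0 in all 9 tumors, Dntt was at most 1.55, and Rag1 was reported only with Iftap. T cell genes had a median of 0.58 between responsive and nonresponsive tumors, with 4 of 9 higher (unadjusted, against 4.36% of all loci) and none lower (Trac, Cd3g and Cd3e were the most abundant). The hepatocyte genes of highest level were Serpina1a (reported with its close copies), Alb and Hpx (reported with Arfip2 and Trim3), with Alb at 173, 835 and 1259 FPKM in PBS-treated, 2678, 1490 and 885 in nonresponsive tumors and 5041, 2576 and 4396 in responsive ones.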

How the data were processed

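Tumors of 9 mice were sequenced (3 per group, named by the sample labels). Per the labels and file headers, the authors deposited 1 Cufflinks gene table per tumor with an FPKM per entry and its interval. Processing notes of the submitters name TopHat2 2.1.1, Bowtie2 2.2.4 and mm8, but positions in the tables could not be matched to GRCm38 and are not printed. Fragment totals are not given in the sources used here, so depth is known only relative to the first PBS-treated tumor. The authors' comparison table (pooled values, fold changes, p- and q-values) was not used.

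Entries were joined by symbol. Segments named in 1 entry in any tumor became 1 unit with summed FPKM. Entries naming both variable and constant genes (10 entries) gave the segments no value, a choice made after the values were seen, and the unit of Iglv1 and Iglv2, affected in 7 tumors, was left out. 7 loci with a failed estimate were dropped. An exact 0 can be a failed estimate.

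Groups were compared with limma 3.58.1 in R 4.3.3 (lmFit, eBayes with trend) on log2(FPKM + 1), pseudocount 1, with Benjamini-Hochberg adjustment, and per-tumor measures with exact two-sided permutation tests in scipy 1.17.1 (Python 3.11.15, pandas 2.3.3, numpy 2.4.6, matplotlib 3.10.9). Identities were computed with Biopython 1.88. The tests were checked on simulated data. The p-values measure the spread between 3 mice per group.

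Members and lists were chosen with earlier results of these data known. Units named are the top 3 heavy and light per tumor, up to 5 heavy and 5 light of highest median among those at an FPKM of at least 1 in all 9 tumors, up to 5 per direction of largest change with an unadjusted p under 0.05 and no overlap, Iglv1 to Iglv3, and the 3 highest genes of each list (constant and joining chain, plasma cell, B cell, germinal center, pre-B recombination, hepatocyte and T cell). Others named were chosen after their values were seen. Some genes of the lists are not reported here. Alternatives were a pseudocount of 0.1, no filter, a filter at 5, upper-quartile scaling, all 9 tumors in 1 fit, a replicate block, loci of 1 gene, entries not joined, other thresholds and overlap measures, and each tumor left out. Including the joint entries and leaving out units with an interval over 10 times their FPKM were added after seeing the data.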

Additional observations from a re-analysis of the deposited data

How the results depend on the processing

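Of the alternatives, most left direction and side of the threshold as given, and none made a group difference of the per-tumor measures pass, since 3 against 3 cannot go below an exact p of 0.1. In the responsive minus nonresponsive comparison, the light sum turned to -0.13 (log2) with only units of 1 segment. Heavy units seen turned to -1.67 with entries not joined and -3.33 at an FPKM of at least 5, light units seen to -5.33 with entries not joined, and the light top 5 share to -15.3 points with only units of 1 segment. Against PBS, the light top 5 share turned to 0.541 in responsive and 0.237 in nonresponsive tumors for the top 1 unit, and in responsive tumors to 1.30 with joint entries and 2.02 without wide intervals. With joint entries the heavy top 5 share of responsive minus PBS turned to -2.05, and the heavy percent to -1.87 in responsive and -4.43 in nonresponsive tumors minus PBS, the latter -0.31 with only units of 1 segment. Same minus different group sharing turned to -0.425 (heavy) and -1.94 (light) by the Jaccard index, and for light to -0.473 on the log scale and -2.37 with joint entries. The causes were not tested, and joint entries and wide intervals were added after seeing the data.

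With 1 tumor left out at a time, responsive minus nonresponsive ranged from -0.047 to 1.65 for the heavy sum, -0.32 to 1.499 for the light sum, -1.5 to 5.0 heavy and -0.833 to 5.67 light units seen. Responsive minus PBS ranged from -0.31 to 3.38 for the light sum, -0.5 to 16 light units seen, -1.74 to 5.26 points for the heavy and -4.66 to 2.76 points for the light top 5 share. Nonresponsive minus PBS ranged from -0.54 to 3.14 for the heavy and -0.69 to 3.00 for the light sum, and from -1.0 to 23.5 heavy and -3.17 to 13.3 light units seen. Sharing differences ranged from -2.09 to 3.00 (heavy) and -1.08 to 3.27 (light).

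Between responsive and nonresponsive tumors, 5 of 141 units were called at an unadjusted p under 0.05. The count was 3 of 164 with no filter and 3 of 125 with a filter at 5. With all 9 tumors in 1 fit it was 2 of 141. Over all loci, 755 of 12718, 1072 of 22541, 574 of 9474 and 767 of 12718 were called, in that order. Leaving out 1 tumor gave 2 of 138 (second nonresponsive) to 47 of 140 (second responsive), with 9 of 138 without the first nonresponsive tumor. The loci called in these fits were 305 of 12401, 867 of 12454 and 1429 of 12466, in that order. With 1 tumor left out, responsive against PBS gave 2 to 21 units called. The count was 2 of 134 without responsive tumor 1 and 2 of 133 without responsive tumor 3. It was 21 of 138 without responsive tumor 2 and 14 of 133 without PBS-treated tumor 2. The loci called in these fits were 1041 of 12436, 1213 of 12420, 3998 of 12475 and 2354 of 12428, in that order. In each of these fits a smaller share of units than of loci was called. Nonresponsive against PBS gave 2 of 133 (first nonresponsive) to 21 of 138 (first PBS-treated). It gave 13 of 136 without the third PBS-treated and 4 of 135 without the second nonresponsive tumor. The loci called were 215 of 12378, 174 of 12430, 289 of 12438 and 182 of 12382, in that order. In limma an adjusted p under 0.05 was reached in responsive against PBS by Ighv3-2 with no filter (0.0182) and by Ighv1-31 without the second PBS-treated tumor (0.0229), and by no other unit or setting. Ighv3-2 was at most 1.23 FPKM in any tumor and below 1 in every responsive and PBS-treated tumor, so its passing is no support for a difference. Ighv1-31 entered the fit without the second PBS-treated tumor only through the responsive group. The tumor left out had 271 FPKM, so the passing of Ighv1-31 is no support for a difference either.

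With the replicate number as a block, 18 of 141, 10 of 139 and 6 of 138 units were called in the 3 comparisons, none after adjustment. Over all loci, 972 of 12718, 990 of 12717 and 214 of 12665 were called with this block. Tumors of the same number share only that number: their deviations from the group means correlated at -0.499 to 0.639.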

Other observations

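Ighv11-2, Ighv7-1 and Igkv14-126 had their highest share in the second nonresponsive tumor, as was seen only after the values were examined. As background, each is known from natural antibodies of B-1 cells, the B cell lineage of body cavities. A heavy chain from Ighv11-2 with a light chain from Igkv14-126 is a known antibody against phosphatidylcholine, and a heavy chain from Ighv7-1 with a light chain from Igkv7-33 a known antibody against phosphorylcholine. Ighv11-2 stood at 209 FPKM (2.13% of heavy segment FPKM) in that tumor and at 0 to 32.6 in the others, and Igkv14-126 at 920 (7.54% of light segment FPKM) against 3.56 to 254. Ighv7-1 stood at 546 (5.55%) against 0 to 105. Igkv7-33 was low throughout, at 17.6 in that tumor, 12.9 in the third responsive tumor and 2.23 or less elsewhere. Bulk libraries do not show which heavy chain is paired with which light chain in a cell, and whether these segments come from 1 clone was not tested. Ighv11-2 is 98.5% identical to Ighv11-1, so its reads may be shared with it, while the nearest relatives of Ighv7-1 and Igkv14-126 are at 88.5% and 91.9%.

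The germline windows of both heavy segments, 150 bases up to the TGT in capitals that closes the third framework region (GENCODE M21 transcripts, GRCm38, minus strand of chromosome 12), are shown because these segments set this tumor apart. They are 65.9% identical over 270 bases.
Ighv11-2, chr12:114048249-114048398: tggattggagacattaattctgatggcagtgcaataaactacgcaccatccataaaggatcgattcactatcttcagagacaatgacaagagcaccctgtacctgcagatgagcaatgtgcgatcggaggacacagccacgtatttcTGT
Ighv7-1, chr12:113896420-113896569: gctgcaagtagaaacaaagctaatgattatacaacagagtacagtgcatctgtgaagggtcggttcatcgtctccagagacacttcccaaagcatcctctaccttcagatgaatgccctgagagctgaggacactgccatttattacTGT

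Another known pair of B-1 cells, Ighv12-3 with Igkv4-91, did not peak there. Ighv12-3 took at most 0.215% of heavy segment FPKM, in the third nonresponsive tumor, and the unit of Igkv4-79 and Igkv4-91 took 7.71% of light segment FPKM in the second responsive tumor and 3.83% in the third nonresponsive tumor.

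Closeness in sequence and joint reporting overlapped only in part. The 24 pairs of heavy genes that shared a table entry in at least 1 tumor had identities of 56.9% to 97.4%. Their median was 94.3%, and 12 of them reached 95%. Another 41 heavy pairs of the same family reached 95% without ever sharing an entry. The 96 kappa pairs that shared an entry had a median identity of 88.3%, and 15 of them reached 95%. Kappa pairs of the same family that never shared an entry had a median of 88.5%.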
